A study of Rattus norvegicus with 19 samples.

Results

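Transcript levels of 3 serotonin receptors, Htr1a (ENSRNOG00000010254), Htr2a (ENSRNOG00000010063) and Htr2c (ENSRNOG00000030877), were read from a table of 32883 rat gene IDs. The receptors were named for their place in anxiety circuits, by a rule that uses no measured value, and were taken by their Ensembl IDs. The selection also named Ttr (ENSRNOG00000016275), which encodes transthyretin, as a comparator for Htr2c. The deposited table pairs no ID with a symbol, and the RefSeq table at hand lists the 3 symbols as protein-coding rat genes but pairs 0 Ensembl IDs, so the pairing of IDs and symbols rests on the selection alone. All 3 receptors passed the filter on low counts that left 15372 IDs to be tested.

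RNA came from whole lysate of brain tissue of 19 female Wistar rats, and the series text names the amygdala as the tissue sampled. They comprised 4 daughters whose fathers had HFD (high-fat diet), 5 whose fathers had ELS (early life stress, given in the series text as maternal separation), 5 whose fathers had both exposures (ELS-HFD) and 5 with control fathers. The number of fathers is not given in the labels. All daughters ate chow and carried no exposure of their own in the labels, and all went through an elevated plus maze, a test of anxiety-like behaviour, at postnatal day 57 ± 1. Male rats are named in the series text and female ones in every sample label, which was followed. Father, litter and library batch are not given in the labels, so p-values rest on the spread among daughters that may include sisters. Because the table pairs no IDs with symbols, the amygdala identity of the tissue was not checked against marker genes, and other serotonin genes and cell type markers are not analysed here.

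Serotonin reaches the amygdala in fibres from the raphe nuclei of the brainstem and acts there on G protein-coupled receptors. Htr1a encodes a Gi-coupled receptor that hyperpolarises neurons, both on serotonin neurons themselves as an autoreceptor and on their targets. Htr2a and Htr2c encode closely related Gq-coupled receptors that activate phospholipase C and usually excite the neurons that carry them. Htr2c is also abundant in the epithelium of the choroid plexus, the tissue in the ventricles that makes cerebrospinal fluid, where Ttr is among the most abundant transcripts. In bulk tissue, fewer cells of a type and less RNA per cell cannot be told apart.

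Htr2c is the receptor on which the results below turn, so the stretch upstream of its start is shown. The sequence is from RefSeq (GRCr8, chrX:115452940-115453189, plus strand) and holds the 250 bases before the annotated start of the gene. Capitals mark its 1 match to the CCAAT box, which lies on the minus strand at base 168 and reads as the reverse complement here.
Htr2c upstream: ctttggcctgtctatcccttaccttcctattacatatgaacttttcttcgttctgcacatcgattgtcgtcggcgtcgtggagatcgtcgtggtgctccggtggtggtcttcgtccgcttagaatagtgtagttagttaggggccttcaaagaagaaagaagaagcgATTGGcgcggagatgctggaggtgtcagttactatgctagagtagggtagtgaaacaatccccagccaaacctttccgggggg
Both strands of 33469 rat promoter windows of this length were searched, and the CCAAT box was in 34.0% of them. The Otx2-type core, spelled TAATCC and named for a homeodomain factor of the choroid plexus, was in 6.34% of all windows. It had no match in the Htr2c window. The TATA box, searched with the letters TATAAA, was in 12.9% of windows and had no match in that of Htr2c. The GC box, searched with the letters GGGCGG, was in 30.5% of windows and likewise had no match there. The Htr2c window held 15 CpG pairs, against a median of 5 across all windows, and 74.2% of windows held fewer.

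Library totals ran from 7034837 to 20266594 counts. Levels are given as CPM, the share of the library's counts scaled to 1000000. CPM is not scaled by gene length, so the receptors' levels were not compared with each other. Counts were most concentrated in a few IDs in 3 libraries: the top 10 IDs held 25.8% of all counts in HFD replicate 1, 16.7% in ELS-HFD replicate 3 and 14.8% in ELS-HFD replicate 2, and between 8.997% and 13.9% in the other libraries. By this measure HFD replicate 1 stood well apart, while ELS-HFD replicates 2 and 3 were only the next highest. Results are also given without the 3 libraries of highest share where that moves them. The second feature that set libraries apart was Ttr. It stood at 0.694 to 7.24 CPM in 10 libraries and at 319 to 11277 CPM in the other 9, with none between. Ttr was below that gap in all 4 HFD libraries, 4 ELS libraries and 2 ELS-HFD libraries, and above it in 1 ELS library, 3 ELS-HFD libraries and all 5 control libraries.

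Differences between paternal groups were tested with edgeR's quasi-likelihood test in a single fit to the 19 libraries, with Benjamini-Hochberg adjustment over all 15372 IDs. No receptor passed an adjusted p of 0.05 in any of 8 contrasts. The background was the same: edgeR called 0 IDs (0%) in every contrast, and limma-voom also called 0. At an unadjusted p under 0.05, edgeR had 1198 IDs (7.79%) for HFD against control, 668 (4.35%) for ELS against control and 643 (4.18%) for ELS-HFD against control. It had 3039 (19.8%) for ELS-HFD against ELS and 519 (3.38%) for ELS-HFD against HFD. For the interaction it had 788 (5.13%), for paternal HFD averaged over early life 3739 (24.3%) and for paternal ELS averaged over diets 382 (2.49%). Of the receptors, Htr2a alone had an unadjusted p under 0.05 in any contrast, in 3 of the 8. In the same order of contrasts DESeq2 called 5, 1, 0, 151, 3, 5, 306 and 1 IDs, and no receptor was among them.

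Htr1a, the inhibitory receptor, was counted 15 to 147 times per library. Its levels in HFD replicates 1 to 4 were 1.56, 6.003, 4.51 and 7.23 CPM. In ELS replicates 1 to 5 they were 5.25, 2.29, 6.89, 7.61 and 8.68 CPM. In ELS-HFD replicates 1 to 5 they were 5.27, 2.13, 3.52, 6.26 and 3.88 CPM. The 3 lowest libraries were HFD replicate 1, ELS-HFD replicate 2 and ELS replicate 2, each in a different exposed group. The control replicates 1 to 5 had 6.12, 5.75, 7.27, 7.56 and 3.94 CPM of Htr1a. Every exposed group overlapped the controls, and 3 of the 5 ELS-HFD libraries lay below the lowest control.

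Group means of Htr1a were 4.83 ± 2.45 CPM in HFD (SD, n = 4), 6.14 ± 2.49 CPM in ELS, 4.21 ± 1.60 CPM in ELS-HFD and 6.13 ± 1.44 CPM in control libraries (SD, n = 5 each). The order of means was ELS, control, HFD, ELS-HFD, and no neighbours in it differed by as much as the larger of their SDs. ELS-HFD against control had a log2 fold change of -0.52 ± 0.35 (SE, 95% interval -1.25 to 0.21, edgeR adjusted p = 0.839), and this was -0.25 without the 3 libraries of highest top-10 share. ELS-HFD against ELS had -0.48 ± 0.35 (SE, 95% interval -1.21 to 0.25, edgeR adjusted p = 0.419), and -0.21 without those 3 libraries. HFD against control had -0.29 ± 0.37 (SE, edgeR adjusted p = 0.805), and this was -0.04 without HFD replicate 1 and -0.51 without HFD replicate 4. ELS against control had -0.04 ± 0.34 (SE, edgeR adjusted p = 0.985). The intervals are wide: a lowering of Htr1a by a factor of 2 (log2 -1) lay inside those for HFD against control and for both ELS-HFD contrasts just given.

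Relative to level, the expected counting error was larger for Htr1a than for the other receptors in every group. In HFD replicate 1 its 22 counts give an exact 95% interval of 0.978 to 2.36 CPM, and in ELS-HFD replicate 2 its 15 counts give 1.19 to 3.52 CPM. Such intervals cover counting error only. The expected counting error of Htr1a at the mean count of each group was 10.2% to 13.7% of its level. The SD between libraries, which includes counting error, was 23.4% (control) to 50.7% (HFD) of the mean. The spread that edgeR assigned to Htr1a beyond counting error was 37.1%, higher than that of 82.2% of the IDs tested.

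**Figure D1:**
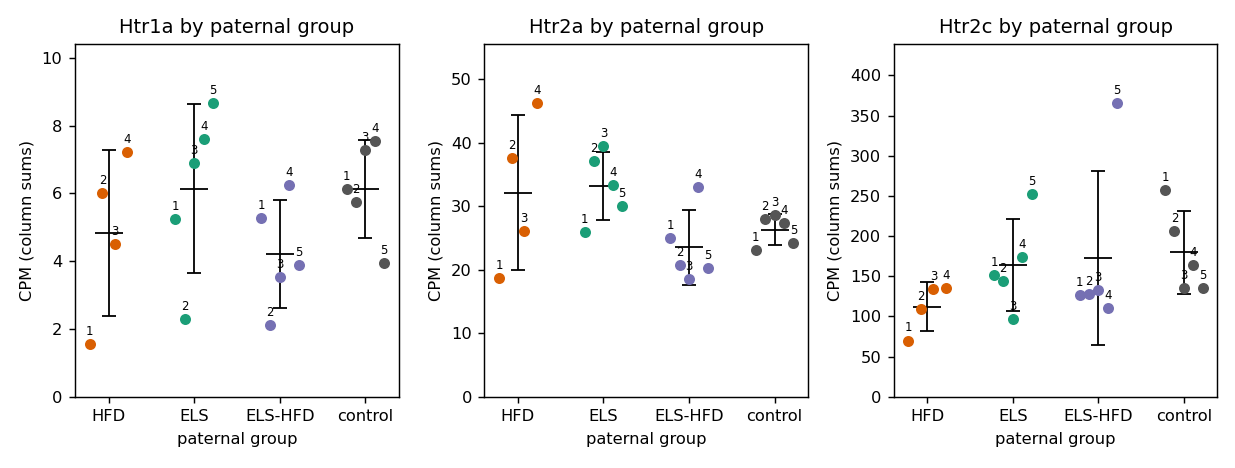
CPM of Htr1a, Htr2a and Htr2c (vertical axes, from 0) in the HFD, ELS, ELS-HFD and control groups. Points are libraries labelled by replicate number, and black bars are the group mean ± SD (n = 4, 5, 5 and 5). Control libraries lie close together for Htr2a (23.1 to 28.6 CPM), and ELS-HFD replicate 5 stands at 366 CPM for Htr2c.

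Htr2a, the excitatory cortical and limbic receptor to which classical psychedelics bind, was counted 146 to 544 times per library. HFD replicates 1 to 4 had 18.7, 37.5, 26.1 and 46.3 CPM. ELS replicates 1 to 5 had 25.9, 37.1, 39.5, 33.4 and 30.0 CPM. ELS-HFD replicates 1 to 5 had 24.9, 20.8, 18.5, 33.0 and 20.3 CPM. ELS-HFD libraries thus sat below ELS libraries, with ELS-HFD replicate 4 the exception: 4 of 5 were below the lowest ELS library. The control replicates 1 to 5 had 23.1, 28.003, 28.6, 27.4 and 24.2 CPM. In ELS, 4 of 5 libraries were above the highest control. HFD libraries reached both beyond and below the controls.

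Mean Htr2a was 32.1 ± 12.2 CPM in HFD (SD, n = 4), 33.2 ± 5.42 CPM in ELS, 23.5 ± 5.83 CPM in ELS-HFD and 26.3 ± 2.43 CPM in control libraries (SD, n = 5 each). The order of means was ELS, HFD, control, ELS-HFD, and each step was smaller than the larger SD of its pair. Among the pairs of groups tested, ELS-HFD against HFD had the widest edgeR log2 fold change in Htr2a, given below. In mean CPM, ELS-HFD and ELS were farthest apart. The interaction is a difference of 2 differences, the diet difference among daughters of stressed fathers minus that among daughters of unstressed fathers. HFD against control was at a log2 fold change of 0.37 ± 0.20 (SE, edgeR adjusted p = 0.618), 0.18 without HFD replicate 4, and ELS-HFD against ELS at -0.46 ± 0.19 (SE, edgeR adjusted p = 0.227). The interaction was -0.82 ± 0.27 (SE, 95% interval -1.40 to -0.25), with an unadjusted edgeR p of 0.00729 and an adjusted p of 0.969. It did not pass, and 5.13% of all tested IDs had an unadjusted p under 0.05 in this contrast. The corresponding share was 19.8% for ELS-HFD against ELS, where the unadjusted edgeR p of Htr2a was 0.0257.

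ELS-HFD against HFD had a log2 fold change of -0.52 ± 0.20 for Htr2a (SE, 95% interval -0.94 to -0.10, unadjusted p = 0.017, edgeR adjusted p = 1.00). Without HFD replicate 4 it was -0.34, with an unadjusted edgeR p of 0.107. ELS against control had 0.30 ± 0.19 (SE, edgeR adjusted p = 0.913) and ELS-HFD against control -0.16 ± 0.19 (SE, edgeR adjusted p = 0.86). The last was -0.32 without ELS-HFD replicate 4 and -0.0075 without the 3 libraries of highest top-10 share. The contrasts with control share the control libraries, and those with ELS-HFD share the ELS-HFD libraries, so they are not independent of each other. With log2 Ttr as a covariate the Htr2a interaction was -0.30 ± 0.32 (SE, edgeR adjusted p = 1.00), and with Ttr on a linear scale, added after the data were seen, it was -0.69 ± 0.28 (SE, edgeR adjusted p = 0.999). Without the same 3 libraries it was -0.80 (edgeR adjusted p = 0.358). The spread of Htr2a beyond counting error was 21.3%, close to the 21.5% median of all tested IDs.

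**Figure D2:**
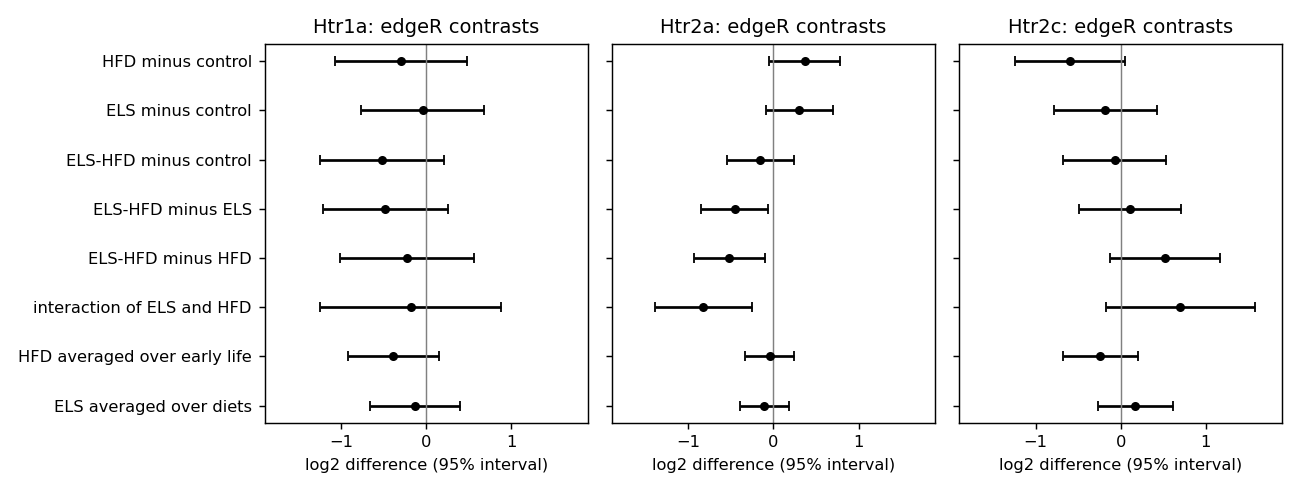
Log2 differences (horizontal axes) of Htr1a, Htr2a and Htr2c in the 8 contrasts, with points for the edgeR estimate over 19 libraries and bars for its 95% interval. Intervals of Htr1a and Htr2c include 0 in every contrast, and those of Htr2a lie below 0 for ELS-HFD against ELS, ELS-HFD against HFD and the interaction, none of which passes adjustment.

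Htr2c was counted 903 to 5213 times per library, so its expected counting error was only 1.86% to 2.61% of its level. HFD replicates 1 to 4 had 70.1, 109, 135 and 135 CPM. ELS replicates 1 to 5 had 152, 144, 96.3, 174 and 252 CPM. ELS-HFD replicates 1 to 5 had 127, 128, 133, 111 and 366 CPM. ELS replicate 5 and ELS-HFD replicate 5 were thus the highest libraries of their groups. The control replicates 1 to 5 had 257, 206, 136, 164 and 135 CPM. All 4 HFD libraries were below all 5 control libraries, though the highest of them (134.86 CPM) and the lowest control (135.08 CPM) were all but level. Of the 15372 IDs tested, 2.37% were likewise lower in every HFD than in every control library without overlap.

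Mean Htr2c was 112 ± 30.6 CPM in HFD (SD, n = 4), 164 ± 57.2 CPM in ELS, 173 ± 108 CPM in ELS-HFD and 179.7 ± 52.2 CPM in control libraries (SD, n = 5 each). The order of means was control, ELS-HFD, ELS, HFD, again with every step within the larger SD. HFD against control had a log2 fold change of -0.59 ± 0.31 (SE, 95% interval -1.24 to 0.05, edgeR adjusted p = 0.617), a fold of 0.663. ELS-HFD against HFD had 0.52 ± 0.31 (SE, edgeR adjusted p = 1.00), and without ELS-HFD replicate 5 it was 0.09. ELS against control had -0.18 ± 0.29 (SE, edgeR adjusted p = 0.925), and -0.38 without ELS replicate 5 and -0.02 without control replicate 1. ELS-HFD against control had -0.07 ± 0.29 (SE, edgeR adjusted p = 0.964), and -0.50 without ELS-HFD replicate 5. The interaction was 0.70 ± 0.42 (SE, 95% interval -0.18 to 1.58, edgeR adjusted p = 1.00), and 0.27 without ELS-HFD replicate 5.

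The 4 libraries highest in Htr2c were also the 4 highest in Ttr, while the next highest in Htr2c, ELS replicate 4 (174 CPM), was low in Ttr. In HFD replicates 1 to 4 Ttr was at 1.77, 2.55, 1.53 and 0.694 CPM. In ELS replicates 1 to 5 it was at 7.24, 1.74, 0.909, 1.146 and 4672 CPM, so that replicate 5, with 252 CPM of Htr2c, was also the 1 ELS library with high Ttr. In ELS-HFD replicates 1 to 5 it was at 0.753, 855, 821, 5.08 and 11277 CPM. The highest Ttr of all libraries and the highest Htr2c of all libraries thus fell together in ELS-HFD replicate 5. The control replicates 1 to 5 had 4715, 2409, 1111, 891 and 319 CPM of Ttr, with the highest Htr2c (257 and 206 CPM) in replicates 1 and 2.

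**Figure D3:**
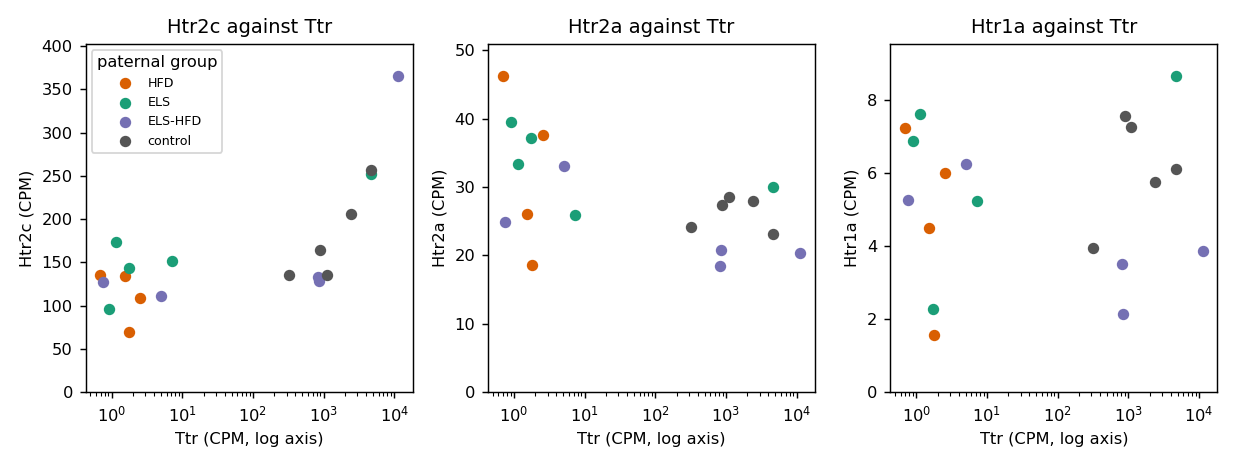
Htr2c, Htr2a and Htr1a (CPM, vertical axes from 0) against Ttr (CPM, log axis) in 19 libraries coloured by paternal group. Above the gap in Ttr, Htr2c climbs with Ttr up to 366 CPM at 11277 CPM of Ttr, and below the gap it spreads between 70.1 and 174 CPM (r = 0.044 on the log2 scale).

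Relations across libraries were computed on log2(CPM + 1), in a family of 12. Since Ttr fell into separate clusters, no relation with it was tested over all libraries pooled. Among the 9 libraries above the gap, Htr2c followed Ttr with Pearson's r = 0.945 (exact permutation p = 0.000284, adjusted p = 0.00341) and Spearman's rho = 0.917 (exact permutation p = 0.00131, adjusted p = 0.0157). Without control replicate 1 and ELS-HFD replicate 5, the libraries farthest from the median of Ttr, r was 0.869 (exact permutation p = 0.0103). After the mean of each group was subtracted, r was again 0.945. In these 9 libraries a straight line through the CPM values had a slope of 22.5 CPM of Htr2c per 1000 CPM of Ttr and an intercept of 130.1 CPM.

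Among the 10 libraries below the gap, no relation of Htr2c with Ttr was detected (r = 0.044, permutation p = 0.902, adjusted p = 0.946, rho = -0.055, permutation p = 0.89, adjusted p = 0.89). There, Htr2c was still present at 70.1 to 174 CPM while Ttr was at 0.694 to 7.24 CPM. For the other receptors no relation with Ttr reached an unadjusted p of 0.05 on either side of the gap, and so few libraries leave wide room for one. Above it, r was 0.026 for Htr2a (exact permutation p = 0.946, adjusted p = 0.946) and 0.277 for Htr1a (exact permutation p = 0.471, adjusted p = 0.747), with rho of 0.167 and 0.35. Without control replicate 1 and ELS-HFD replicate 5 these became r = 0.547 for Htr2a (exact permutation p = 0.206) and 0.565 for Htr1a (exact permutation p = 0.194), and for Htr1a r was 0.511 after group means were subtracted. Below it, r was -0.23 for Htr2a (permutation p = 0.517) and -0.061 for Htr1a (permutation p = 0.889), with rho of -0.358 and -0.418.

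Ttr was the only choroid plexus marker that could be read. Its part in the Htr2c difference between HFD and control libraries cannot be told apart from paternal HFD by a split of the libraries. All HFD libraries lay below the gap and all control libraries above it. ELS and ELS-HFD libraries lay on both sides, and their contrasts were not split by Ttr. Ttr differed with paternal group, so a shift of Htr2c under a Ttr covariate does not measure a cause. The cause was not tested. In ELS-HFD against control, Htr2c went from -0.07 to 0.15 with log2 Ttr and to -0.50 without ELS-HFD replicate 5. HFD against control was -0.28 ± 0.15 (SE, edgeR adjusted p = 0.767) with Ttr CPM on a linear scale, a setting added after the data were seen. With log2 Ttr it was 0.25 ± 0.29 (SE, edgeR adjusted p = 0.789), a change of sign. ELS-HFD against HFD was 0.00 ± 0.15 (SE, edgeR adjusted p = 1.00) with linear Ttr and -0.10 ± 0.25 (SE, edgeR adjusted p = 1.00) with log2 Ttr. The interaction was 0.05 ± 0.21 (SE, edgeR adjusted p = 0.999) with linear Ttr and -0.51 ± 0.41 (SE, edgeR adjusted p = 1.00) with log2 Ttr. Linear Ttr did not bring Htr2c nearer to 0 in every contrast. With it, ELS-HFD against control was -0.28 ± 0.14 (SE, edgeR adjusted p = 0.763) and ELS-HFD against ELS -0.24 ± 0.14 (SE). HFD averaged over early life was -0.26 ± 0.099 (SE, edgeR adjusted p = 0.152), against -0.24 without a covariate. ELS against control was -0.04 ± 0.14 and ELS averaged over diets -0.02 ± 0.10 (SE). The fits with Ttr reach across a gap in Ttr that holds no library, so they depend on the assumed shape of the relation. A covariate without Ttr, the share of counts in the top 10 IDs, was also added after the data were seen. With it, Htr2c was -0.28 ± 0.31 in HFD against control, 0.30 ± 0.29 in ELS-HFD against HFD and 0.56 ± 0.38 in the interaction (SE).

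**Figure D4:**
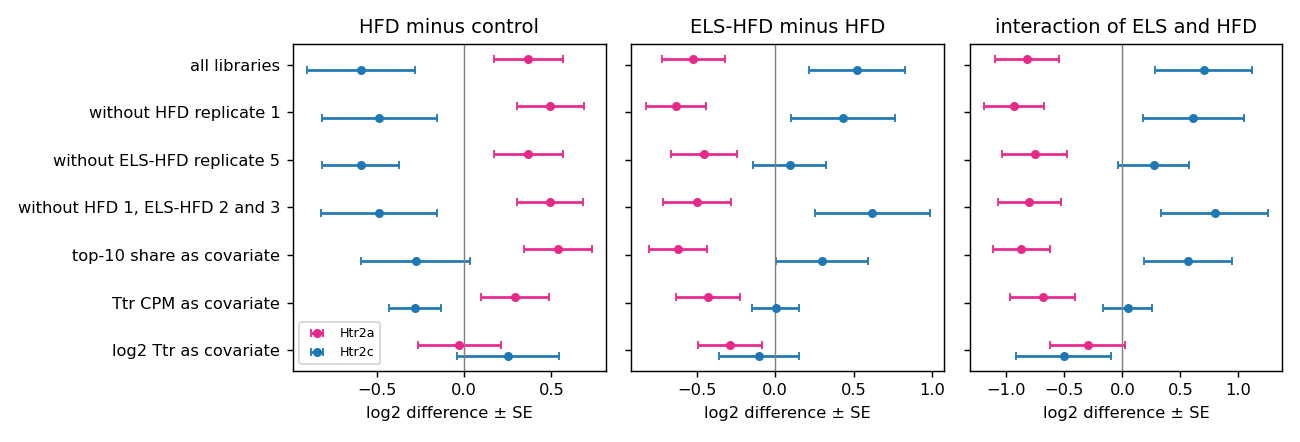
Log2 differences ± SE (horizontal axes) of Htr2a and Htr2c for HFD minus control, ELS-HFD minus HFD and the interaction, by setting (rows). For Htr2c the interaction is 0.70 with all libraries and 0.27 without ELS-HFD replicate 5. It is 0.56 with the top-10 share as a covariate, 0.05 with Ttr CPM and -0.51 with log2 Ttr. For Htr2a the interaction is below 0 in every row.

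The receptors were also set against each other and against the percentage of counts held by the top 10 IDs. Htr1a and Htr2a were related across 19 libraries (r = 0.553, permutation p = 0.0138, adjusted p = 0.0413, rho = 0.628, permutation p = 0.0048, adjusted p = 0.0216). Without HFD replicate 1 and ELS-HFD replicate 2, the libraries farthest from the median of Htr1a, r was 0.356 (permutation p = 0.16). The relation was thus weaker and not detected without them. Within groups, after subtraction of the group means, r was 0.591. On log2 CPM scaled by TMM, as in the edgeR fits, r over all libraries was 0.443. With IDs ordered by that measure, highest r first, Htr2a was at place 3839 of 15371 for Htr1a. Htr1a was at place 2548 for Htr2a, so many other IDs were more like each receptor. No relation of Htr2c was detected with Htr1a (r = 0.319, permutation p = 0.184, rho = 0.295) or with Htr2a (r = -0.143, permutation p = 0.56, rho = -0.086).

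CPM is a share of the library's counts, so a larger share for the top 10 IDs leaves less for every other ID. A negative r is thus partly built in for any ID outside the top 10, and its size over all IDs was not computed. Htr1a was lower where the top 10 IDs held more of the counts (r = -0.69, permutation p = 0.00102, adjusted p = 0.00612). Its rho was -0.519 (permutation p = 0.0245, adjusted p = 0.0735), and r was -0.49 (permutation p = 0.0475) without HFD replicate 1 and ELS-HFD replicate 3. For Htr2c r was -0.624 (permutation p = 0.00717, adjusted p = 0.0287), rho was -0.625 (permutation p = 0.0054, adjusted p = 0.0216), and r was -0.542 (permutation p = 0.0257) without the same libraries. For Htr2a r was -0.501 (permutation p = 0.0204, adjusted p = 0.0489) and rho was -0.382 (permutation p = 0.107, adjusted p = 0.257). Without those libraries r was -0.185 (permutation p = 0.479), so no relation was detected without them. Within groups the r values were -0.687 for Htr1a, -0.554 for Htr2c and -0.644 for Htr2a. With that share as a covariate, added after the data were seen, Htr1a in HFD against control was 0.10 ± 0.33, in ELS-HFD against control -0.33 ± 0.29 and in ELS-HFD against ELS -0.11 ± 0.31 (SE).

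The IDs whose pattern was most like each receptor's were named by Pearson's r of log2 CPM over the 19 libraries, as a description with no test. For Htr2c these were ENSRNOG00000021916 (r = 0.946, 0.709 to 16.7 CPM) and ENSRNOG00000003038 (r = 0.923, 3.05 to 25.5 CPM). For Htr2a they were ENSRNOG00000008666 (r = 0.936) and ENSRNOG00000006426 (r = 0.906). For Htr1a they were ENSRNOG00000047179 (r = 0.837) and ENSRNOG00000008941 (r = 0.81). The files pair none of these IDs with a name. No receptor was among the IDs most like another receptor.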

How the data were processed

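The deposited values are raw counts, whole numbers per Ensembl gene ID that the authors had not normalized, as their unequal column totals show. Rnor_6.0 and DESeq2 are listed, without version, per the submitters' processing notes. Aligner, annotation release, strand setting and treatment of multiply mapped reads: not given in the sources used here, so reads of overlapping or antisense genes cannot be told apart. Polyadenylated RNA from about 400 ng of input was primed randomly, per the labels' protocols. Each column carries the number that its sample's description gives.

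CPM was computed from column sums. IDs were filtered with filterByExpr, scaled by TMM and tested with edgeR 4.0.16 (R 4.3.3), with group as the only term. SE was the log2 fold change over the square root of F, and the 95% interval used edgeR's moderated degrees of freedom. Alternatives used DESeq2 1.42.0, limma-voom 3.58.1 and edgeR under other settings. Correlation p-values are two-sided, exact for 9 libraries and from 100000 permutations for more, adjusted (Benjamini-Hochberg) over 12. The edgeR test alone, for HFD against control, was tried on simulated counts drawn independently for each ID and library. The simulation was set up without outlying libraries, Ttr clusters or litters, and the correlations were not tried.

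The receptors, Ttr, the settings and the rule for named genes (receptors, Ttr and the 2 most similar IDs of each receptor) were chosen with earlier results of these data known, although the rule for the receptors itself uses no measured value. The 3 settings described as added were chosen later still, after the values given here were seen. The lists of serotonin genes and cell type markers need symbols and were not used.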

Additional observations from a re-analysis of the deposited data

Results flagged for a closer look

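Among 16 sets of CPM values (3 receptors and Ttr in 4 groups), 3 had a single library well outside its group. The rule was Dixon's ratio, the gap to the nearest library over the range, on CPM and not on a log scale. Chance alone gives such a flag in about 1 of 20 sets if values are normally distributed. Ttr, which is split by a wide gap, is not, so that rate does not hold for it. ELS-HFD replicate 5 was at 366 CPM of Htr2c, with the other ELS-HFD libraries at 111 to 133 CPM. The same library was at 11277 CPM of Ttr, with the others at 0.753 to 855 CPM. ELS replicate 5 was at 4672 CPM of Ttr, with the other ELS libraries at 0.909 to 7.24 CPM, and its Htr2c of 252 CPM was the highest of its group. The sets are not independent, since Htr2c and Ttr were related above the gap in Ttr.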

How the results depend on the processing

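Each receptor contrast was recomputed under 30 or 31 other settings. Of 735 recomputed values, 695 kept their direction and stayed above an adjusted p of 0.05, 40 changed sign, and none passed the threshold. The lowest adjusted p of any was 0.0815, for Htr2a in ELS-HFD against ELS without HFD replicate 1. With log2 Ttr as a covariate, Htr2a in HFD against control was -0.0276, and Htr2c was 0.25 in HFD, 0.40 in ELS and 0.15 in ELS-HFD against control, -0.25 in ELS-HFD against ELS, -0.10 in ELS-HFD against HFD and -0.51 in the interaction. With that covariate and without the 3 libraries of highest top-10 share (added), Htr1a was 0.0297 and 0.0119 in HFD and in ELS against control. Htr2c was then 0.50, 0.51 and 0.48 in HFD, ELS and ELS-HFD against control, -0.0337 in ELS-HFD against ELS, -0.0208 in ELS-HFD against HFD, -0.53 in the interaction and 0.23 in HFD averaged over early life. With linear Ttr (added), Htr2c was -0.24 in ELS-HFD against ELS and -0.0202 in ELS averaged over diets. With the share of the 10 most abundant IDs (added), Htr1a in HFD against control was 0.0961, Htr2c in ELS-HFD against control 0.0163, and HFD averaged over early life 0.0994 for Htr2a and 0.0023 for Htr2c. Without the 3 libraries, Htr2c in ELS-HFD against control was 0.13 and Htr2a in HFD averaged over early life 0.0906. With column sums in edgeR, Htr1a in ELS against control was 0.005. For values that changed sign when 1 library was left out, the ranges were -0.19 to 0.16 (Htr1a, ELS against control), -0.43 to 0.0348 (Htr1a, interaction), -0.14 to 0.0257 (Htr2a, HFD averaged over early life), -0.50 to 0.0894 (Htr2c, ELS-HFD against control), -0.32 to 0.30 (Htr2c, ELS-HFD against ELS) and -0.0443 to 0.25 (Htr2c, ELS averaged over diets). The cause was not tested.

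Same-numbered libraries did not consistently deviate together (9 of 27 pairs over 0.1, correlations from -0.436 to 0.57), so the numbers were not taken to pair animals. Pairs of replicate 4 were all positive (0.084 to 0.336), and differently numbered pairs were not computed for reference. With the replicate number as a block edgeR called 0 IDs in every contrast, the Htr2a interaction was -0.75, and Htr2c in ELS averaged over diets was -0.0034, a change of sign. The relation of Htr2c with Ttr above the gap was 0.941 to 0.951 under other scales and without those 3 libraries, and 0.908 to 0.978 with 1 library left out. Below the gap it was -0.075 with TMM-scaled CPM, -0.03 minus group means, and -0.238 to 0.164 with 1 library left out. Over all IDs, edgeR called 2405 for ELS-HFD against ELS without HFD replicate 1 and 12 for the interaction without ELS replicate 5, where it called 0 with all libraries, and no receptor was among them. For Htr1a, counted 15 to 147 times, the counting error at the group mean count was 10.2% to 13.7%. That was below the SD of 23.4% to 50.7% between libraries, which includes counting error. In the libraries with the fewest counts the counting error was larger.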

Other observations

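The balance between the related Gq-coupled receptors varied widely between animals. The ratio of Htr2c to Htr2a counts, which does not depend on the library total, was 2.91 to 5.16 in HFD libraries (median 3.34), 2.44 to 8.40 in ELS libraries (median 5.21), 3.36 to 18.0 in ELS-HFD libraries (median 6.18) and 4.75 to 11.1 in control libraries (median 5.99). The highest ratios were in ELS-HFD replicate 5 (18.0), control replicate 1 (11.1) and ELS replicate 5 (8.40), the 3 libraries with the most Ttr. The ratio is of counts not scaled by length, so it compares libraries and not the abundance of the 2 transcripts. The ratio of Htr2a to Htr1a counts was 3.46 to 16.2 over all libraries, with the highest value in ELS replicate 2, where Htr1a had 29 counts.

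Over all 19 libraries, and with no test since Ttr falls into clusters, Htr2a stood near the far end of the IDs ordered by their correlation with log2 CPM of Ttr, at place 15332 of 15371 (r = -0.632). Htr2c stood at place 302 (r = 0.696) and Htr1a at place 6588 (r = 0.015). All HFD libraries are low and all control libraries high in Ttr, so these places mix differences between groups with differences within them.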
